A study of Mus musculus with 9 samples.

Results

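The small (40S) ribosomal subunit is built on a single ribosomal RNA and a set of proteins, most of them named RPS in mammals. The genes for these proteins were taken from a table of raw counts by symbol: the letters Rps with a number and an optional a or x, or Rps3a1 or Rpsa, with a total of at least 30 counts over the 9 libraries. The rule found 31 genes among the 56791 of the table, and all 31 passed the filter on low counts with 17534 genes in all. Fau, whose product is cut into a ubiquitin-like protein and the small subunit protein eS30, falls outside the naming rule and is described with the companions.

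The study sequenced RNA of the gastrocnemius, a mainly fast-twitch muscle of the calf, from female mice given a daily oral gavage for 2 months. The 3 groups held 3 libraries each: young mice on vehicle (saline), aged mice on vehicle, and aged mice on ginkgolide B (GB) at 12 mg per kg body weight. Titles of vehicle samples carry 3M (young) or 23M (aged) and those of GB samples no such entry, with strain and genotype not given in the sources used here. GB is a terpene lactone from the ginkgo tree that antagonises the platelet activating factor receptor. Whether the 3 libraries of each group represent 3 different mice is not stated in the labels, and the p-values therefore reflect the spread among libraries, possibly only technical spread.

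The small subunit binds the messenger RNA, scans it for the start codon and reads each codon against the transfer RNA, between a body, a platform and a mobile head. Vertebrate mRNAs for ribosomal proteins begin with a C followed by a run of pyrimidines (a 5′ terminal oligopyrimidine or TOP motif), through which mTORC1 and the RNA-binding protein LARP1 set how well they are translated. In skeletal muscle, ribosome content is one of the limits on protein synthesis and fibre growth.

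Libraries of the GB group were set apart from those of both vehicle groups before any gene was tested. They held 39478427 to 44294097 counts against 51543383 to 61680520 with vehicle, and 18678 to 19362 genes with a count against 22616 to 24185. Mitochondrially encoded genes took 24.3 to 26.1% of their counts, against 13.9 to 15.3% (aged vehicle) and 8.60 to 10.2% (young vehicle), and their TMM scaling factors were 0.75 to 0.80 against 1.09 to 1.17. The GB libraries hold all the treated samples and no others, so how they were prepared and how the mice were treated cannot be told apart. In whole tissue, fewer cells of a type and less RNA per cell cannot be told apart either. The 10 muscle fibre markers summed to 153105 to 166816 CPM (TMM-scaled counts relative to library size) in young, 117464 to 132592 in aged vehicle and 162208 to 190634 in GB libraries. With GB 4 of these markers were called higher and 4 lower by edgeR, with a median log2 fold change of 0.04 (24.4% of all genes tested were called higher and 28.8% lower). By the same test 4 of 6 endothelial, 4 of 6 erythroid, 5 of 7 fibroblast and 4 of 10 macrophage markers fell with GB, and 1 endothelial, 2 fibroblast and 1 macrophage marker rose. The summed levels of these 4 lists were 513 to 519, 1159 to 2130, 763 to 973 and 218 to 249 CPM in aged vehicle against 252 to 287, 687 to 782, 575 to 704 and 186 to 207 CPM in GB libraries. In young libraries the same sums were 341 to 356, 239 to 515, 851 to 1615 and 197 to 229 CPM. Summed lymphocyte markers were at 74.2 CPM in young replicate 1 and at 1.64 to 11.6 CPM in the other 8 libraries. No marker was at 0 in every library, and the part of other cell types in the results on ribosomal protein genes was not tested.

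Promoter sequences of the members at both ends of the response to GB are shown here because the letters at the transcription start are where a TOP motif would lie. The windows run from 50 bases upstream to 20 bases from the annotated start on, written 5′ to 3′ on the gene's strand, from RefSeq on GRCm38.p6, which held a window for 23 of the 31 genes. Rps20, the second in rank, had none. Rps18 and Rps15 complete the upper set, although Rps19, which had a window and is not printed, rose more than Rps15 (2.65 against 2.54). Capitals mark a C followed by at least 5 C or T within 20 bases of the start. The search took both sides of the start. A marked tract can thus lie wholly upstream of it, as in Rps15, and need not be a TOP motif.
Rps12 (chr10:23787190-23787259, minus strand): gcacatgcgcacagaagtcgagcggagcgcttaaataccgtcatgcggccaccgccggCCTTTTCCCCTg
Rps27 (chr3:90213629-90213698, minus strand): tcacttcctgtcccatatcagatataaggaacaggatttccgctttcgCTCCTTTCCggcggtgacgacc
Rps18 (chr17:33955646-33955715, minus strand): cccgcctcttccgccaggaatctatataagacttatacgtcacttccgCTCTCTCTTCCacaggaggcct
Rps15 (chr10:80292381-80292450, plus strand): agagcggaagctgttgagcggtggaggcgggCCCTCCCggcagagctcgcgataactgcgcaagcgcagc
Rps2 (chr17:24720013-24720082, plus strand): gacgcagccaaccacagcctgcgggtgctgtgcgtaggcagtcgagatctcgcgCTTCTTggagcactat
Rps6 (chr4:86857348-86857417, minus strand): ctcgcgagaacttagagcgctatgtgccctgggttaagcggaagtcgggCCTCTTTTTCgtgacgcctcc
Rps4x (chrX:102189372-102189441, minus strand): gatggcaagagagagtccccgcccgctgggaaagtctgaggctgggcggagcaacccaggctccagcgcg
Rps3 (chr7:99483690-99483759, minus strand): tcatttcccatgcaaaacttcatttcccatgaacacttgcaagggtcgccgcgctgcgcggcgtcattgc
The first 4 belong to members with log2 fold changes of 2.54 to 3.02 with GB and the last 4 to members with 1.33 to 1.79, and the windows of Rps4x and Rps3 hold no such tract.

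Over the windows of all members, 63.0% held the pyrimidine tract, against 29.4% of all promoter windows and 30.3% of those of tested genes. The letters CCGGAA, the core bound by ETS family transcription factors, were found on either strand in 51.9% of member windows of 300 bases, against 14.9% of all and 24.1% of tested genes. AAGATGG, the core bound by YY1, was in 18.5% of member windows on either strand and 6.34% of all, and the TATA box letters TATAAA in 7.41% and 8.32% on the sense strand. Windows of tested genes held them in 6.72 and 4.84%. A match is a description of letters and not of binding, and an annotated start need not be the one used in muscle. Leaving out Rps10, the 15 members with the tract had a median log2 fold change of 2.18 with GB and the 7 without had 2.04, while the 12 with and the 10 without CCGGAA had 2.11 and 2.12.

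The first comparison of the design set aged vehicle against young vehicle muscle. Small subunit transcripts as a whole took overlapping shares of the library at both ages, 0.578 to 0.670% of counts in young and 0.602 to 0.668% in aged vehicle libraries. The summed level of the 31 genes was 5592 ± 402 CPM in young against 5561 ± 124 CPM in aged vehicle libraries (SD, n = 3 libraries each), a difference smaller than the spread between the young libraries. The share is that of counts, so its counting error is small: the widest 95% Wilson interval of a library reached 0.0045 percentage points to each side, which covers counting error only. The median log2 fold change of the members was 0.01, against -0.00 over all genes tested.

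Of the 31 genes, 1 fell with age in edgeR's quasi-likelihood test with Benjamini-Hochberg adjustment over all genes (4.28% of all genes tested were called lower). The number called higher was 0 (4.32% of all genes), with 3 higher and 1 lower at an unadjusted p under 0.05 (11.2% and 11.1% of all genes). DESeq2 called 2 members higher, Rps20 and Rps24, and 1 lower (7.65% and 6.99% of the genes it gave an adjusted p). With limma-voom the numbers were 1 and 1 (6.21% and 5.8% of all genes, 2105 genes in all). The member that fell was Rps2, of protein uS5 at the entry of the mRNA channel. It was at 691, 681 and 595 CPM in the young and at 504, 561 and 510 CPM in the aged vehicle libraries. All 3 aged libraries lay below all 3 young ones, and the log2 fold change was -0.32 (SE 0.09, edgeR adjusted p = 0.0453). Rps2 no longer passed when young replicate 1 (adjusted p = 0.122) or 2 (0.134), aged vehicle replicate 1 (0.139), 2 (0.0682) or 3 (0.161) or GB replicate 2 (0.0759) was left out, and the adjusted p ran from 0.012 to 0.161 over the alternatives.

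Libraries did not overlap between the ages for 5 members, with Rps14, Rps20, Rps24 and Rps25 higher in all aged libraries (17.5% of all genes) and Rps2 lower (16.9% of all genes). Rps20, of head protein uS10, was at 160, 161 and 146 CPM in young against 181, 191 and 187 CPM in aged vehicle libraries, which gave a log2 fold change of 0.26 (SE 0.08, adjusted p by edgeR = 0.059). DESeq2 (adjusted p = 0.0264) and limma-voom (0.0473) called it, as did edgeR without GB replicate 1 (0.0484) or 3 (0.0375), and over all alternatives the adjusted p was 0.0264 to 0.34. Rps25, which cells need for initiation on some viral internal entry sites, was at 167, 209 and 174 CPM in young and 216, 217 and 222 CPM in aged libraries. Its log2 fold change was 0.25 (SE 0.09, edgeR adjusted p = 0.124), and young replicate 2 lay close to the aged libraries. Without that library Rps25 was called (adjusted p = 0.0474, and 0.042 to 0.332 over the alternatives). Rps24, a gene mutated in some patients with Diamond-Blackfan anaemia, was at 230, 243 and 206 CPM in young and 261, 280 and 264 CPM in aged libraries, which gave a log2 fold change of 0.25 (SE 0.08, adjusted p by edgeR = 0.0858). With DESeq2 Rps24 passed at an adjusted p of 0.0485, the lowest of its alternatives, of which the highest gave 0.298. Rps14, of platform protein uS11 and in the segment lost in human 5q- syndrome, was at 238, 236 and 190 CPM in young and 251, 255 and 241 CPM in aged libraries and did not pass the test (adjusted p = 0.366).

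Rps27a codes for ubiquitin fused to the small subunit protein eS31. It was at 107, 55.5 and 105 CPM in young against 105, 105 and 106 CPM in aged vehicle libraries. Young replicate 2 alone was low, with 3197 counts against 7246 and 7303 in the other young libraries. A processed copy, the row Rps27a-ps3, held 228 counts in that library and 53 and 56 in the others. The log2 fold change of Rps27a was 0.24 (SE 0.21, edgeR adjusted p = 0.564) with all libraries and -0.013 without young replicate 2. With all rows named as Rps27a pseudogenes added, the value over all libraries was 0.23.

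**Figure D1:**
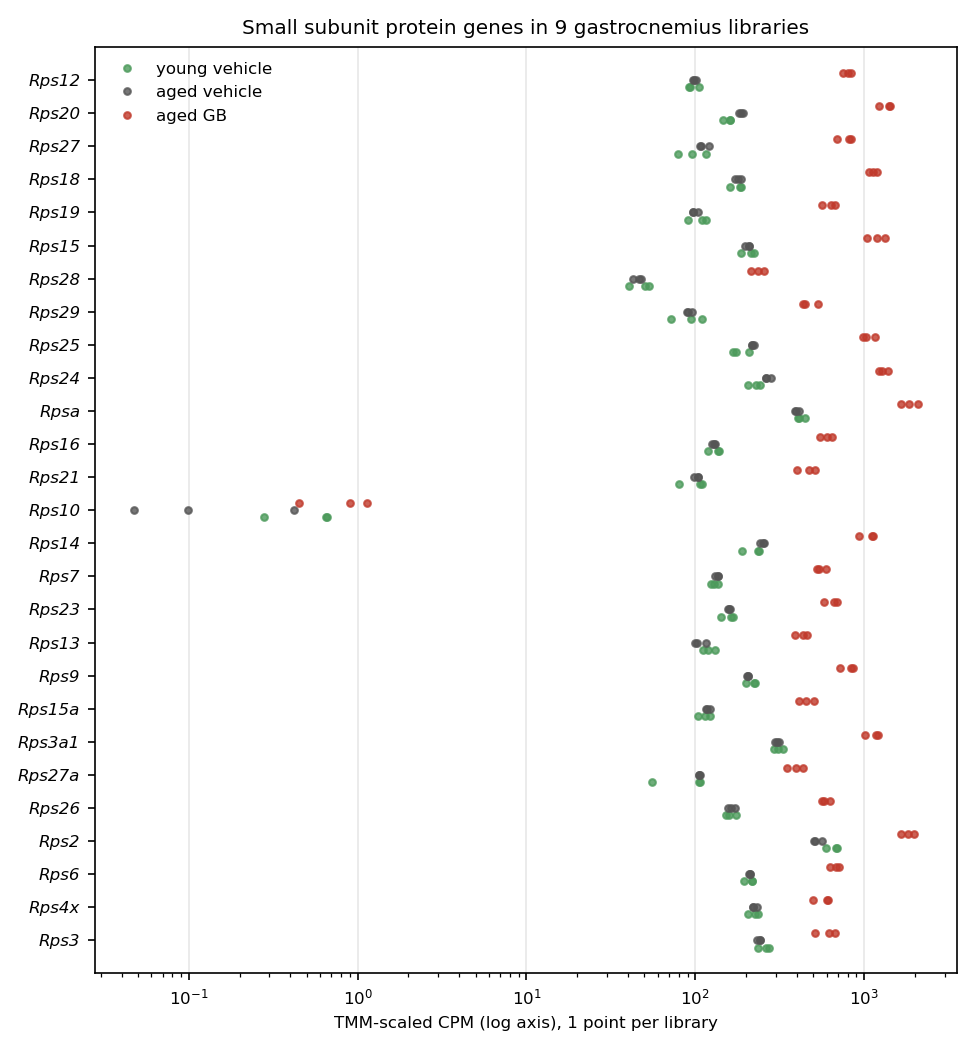
Level of 27 of the 31 small subunit protein genes in each library, in TMM-scaled CPM on a log axis, with genes ordered by their log2 fold change with GB. The 3 GB libraries lie to the right of the 6 vehicle libraries for every gene but Rps10, which is at 1.14 CPM or less in every library.

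The second comparison set aged GB against aged vehicle muscle and asks what GB changes at that age. All 31 genes rose with GB (24.4% of all genes tested were called higher by edgeR), and all 31 by at least 1 log2 unit (13.1% of all genes). Both numbers depended on the scaling. With library totals 30 members were called higher (2030 of 17534 genes in all), and 28 by at least 1 log2 unit (5.84% of all genes). There Rps3 and Rps4x had 0.76 and 0.78, and Rps10 was not called (edgeR adjusted p = 0.0857). The GB libraries lay above all aged vehicle libraries for 31 of 31 genes, against 27.3% of all genes tested. No member was called lower by edgeR (28.8% of all genes), DESeq2 (30.3%) or limma-voom (28.5%), and 0 were lower at an unadjusted p under 0.05 (31.4% of all genes). The median log2 fold change of the members was 2.18, a 4.54-fold rise, against -0.05 over all genes tested, and the members ranged from 1.33 for Rps3 to 3.02 for Rps12.

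The genes together took 2.11, 1.92 and 1.73% of counts in GB replicates 1 to 3, all above the 0.602 to 0.668% of aged vehicle, a mean share 3.02 times as high. Their summed level was 24895 ± 2008 CPM with GB (SD, n = 3 libraries). With mitochondrially encoded genes left out of the total, the mean share was 0.742% in aged vehicle and 2.56% in GB libraries. Counts of small subunit genes were 0.73 ± 0.01 of those of large subunit genes in aged vehicle and 0.771 ± 0.0115 in GB libraries (SD, n = 3 libraries each), with the lowest GB library at 0.758 and the highest aged vehicle library at 0.739. TMM sets the scale of these folds: with library totals alone the members' median was 1.62 and that of all genes -0.62.

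Proteins of the mRNA channel included the member that rose least. Rps3, of uS3 on the head at the channel entry, was at 242, 243 and 233 CPM in aged vehicle against 674, 619 and 513 CPM with GB. The groups were clear of each other, and the log2 fold change was 1.33 (SE 0.10, edgeR adjusted p = 2.90e-07), the smallest of the 31. Rps2, the other entry protein described here, went from 504, 561 and 510 CPM to 1974, 1811 and 1645 CPM, a log2 fold change of 1.79 (SE 0.09, adjusted p = 1.22e-08). Rps26, of eS26 at the mRNA exit, which can leave the ribosome under stress, was at 156, 171 and 163 CPM in aged vehicle against 625, 576 and 565 CPM with GB (log2 fold change 1.85, SE 0.08, edgeR adjusted p = 3.75e-09). Rps28, another exit protein, went from 42.8, 46.3 and 47.6 CPM to 235, 255 and 214 CPM (2.36, SE 0.11). Rps14, of the platform near that exit, reached 1136, 1110 and 936 CPM with GB from 251, 255 and 241 CPM (2.09, SE 0.11). Rpsa, the laminin receptor precursor that sits as uS2 on the platform side, rose from 394, 410 and 390 CPM to 2082, 1840 and 1655 CPM (2.22, SE 0.09). None of these exit and platform genes overlapped between the groups.

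Body proteins eS6 and eS4 belonged to the low end. Rps6, the substrate of the S6 kinases downstream of mTORC1, was at 212, 210 and 208 CPM in aged vehicle against 707, 685 and 631 CPM with GB. The aged vehicle libraries differed little, with an SD of 1.97 CPM, and the log2 fold change was 1.68 (SE 0.08, edgeR adjusted p = 4.62e-09). Rps4x, the X-linked gene of eS4, went from 233, 221 and 219 CPM to 612, 604 and 499 CPM (1.35, SE 0.09, edgeR adjusted p = 1.19e-07). Rps27, of the zinc-binding protein eS27, rose from 107, 121 and 109 CPM to 836, 811 and 694 CPM (2.79, SE 0.13, edgeR adjusted p = 6.51e-09). Rps27 stood at the other end. As for every member but Rps10, all its GB libraries were above every vehicle library, young ones included.

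Of the 7 members with the highest log2 fold changes, 5 code for head proteins. Rps12, of eS12 on the beak, had the largest change of the members, with 96.9, 101 and 98.2 CPM in aged vehicle against 807, 833 and 753 CPM with GB. Libraries of a group lay close together, and the log2 fold change was 3.02 (SE 0.08, edgeR adjusted p = 2.04e-10). Rps20, whose protein is ubiquitinated when ribosomes collide, followed with 181, 191 and 187 CPM against 1422, 1399 and 1225 CPM (2.85, SE 0.08, edgeR adjusted p = 2.58e-10). Rps18 (uS13), which touches the large subunit in a bridge, went from 179, 188 and 173 CPM to 1186, 1136 and 1063 CPM (2.65, SE 0.09). Rps19, the gene most often mutated in Diamond-Blackfan anaemia, went from 96.4, 104 and 97.3 CPM to 671, 633 and 562 CPM (2.65, SE 0.11). Rps15 (uS19), with a tail that reaches toward the decoding site, went from 208, 208 and 198 CPM to 1331, 1186 and 1048 CPM (2.54, SE 0.10). In each of these head genes GB replicate 3 was the lowest of its group, as it was in the summed level. Rps29, of the zinc-binding head protein uS14, had 91.1, 89.9 and 95.8 CPM in aged vehicle against 437, 537 and 446 CPM with GB (2.36, SE 0.14), with GB replicate 2 the highest. Rps27a went from 105, 105 and 106 CPM to 437, 394 and 348 CPM (1.89, SE 0.22, edgeR adjusted p = 4.66e-05).

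Other members lay between these ends. Rps3a1 (eS1), Rps15a (uS8), Rps9 (uS4), Rps13 (uS15), Rps23 (uS12, at the decoding centre), Rps7 (eS7), Rps21 (eS21), Rps16 (uS9, with a tail at the P-site transfer RNA), Rps24 (eS24) and Rps25 (eS25) had log2 fold changes of 1.90 for Rps3a1 to 2.28 for Rps25. By place, the median was 2.36 for the 13 head members without Rps10 and 2.02 for the 17 body members, platform included. Members with bacterial and archaeal relatives (names in uS, n = 15) had a median of 2.09 and those found in eukaryotes and archaea or eukaryotes alone (names in eS, n = 15 without Rps10) had 2.27. Ranges of both pairs of classes overlapped.

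**Figure D2:**
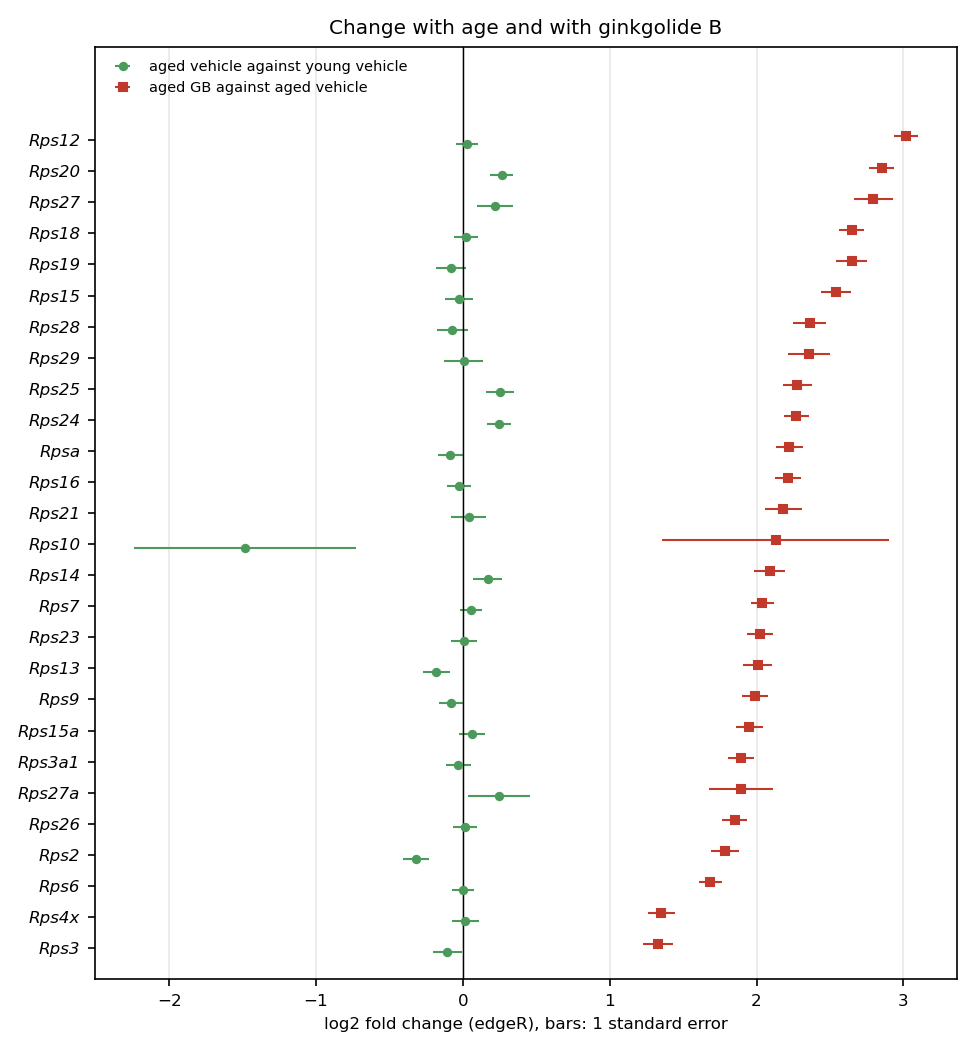
Log2 fold change of 27 of the 31 members (edgeR, bars of 1 standard error) with age and with GB, ordered by the latter. Age values lie around 0 apart from Rps10 with its wide error, and GB values run from 1.33 to 3.02.

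Rps10 (eS10), ubiquitinated like Rps20 on collided ribosomes, was listed with few counts in every library. It had 19, 38 and 45 counts in young, 24, 3 and 6 in aged vehicle and 36, 15 and 28 in GB libraries. The highest aged vehicle library (0.422 CPM) lay just below the lowest GB library (0.45 CPM), and the log2 fold change of 2.13 had an SE of 0.77 (edgeR adjusted p = 0.034). It did not pass when young replicate 2 or 3, aged vehicle replicate 2 or 3 or GB replicate 1 or 3 was left out (adjusted p of 0.0527 to 0.123), and without aged replicate 1 the value was 3.45 (adjusted p = 0.00481, and 2.06e-08 to 0.315 over the alternatives). With age the log2 fold change was -1.48 (SE 0.76, adjusted p = 0.276), and -2.82 without aged replicate 1. The GENCODE M21 annotation of GRCm38 has a readthrough gene, RPS10-NUDT3, over Rps10 on the same strand, and the table has no row of that name. The row of the processed copy Rps10-ps2 held 2298, 1937 and 2034 counts in young, 1709, 2138 and 1916 in aged vehicle and 4338, 4064 and 3262 in GB libraries. With all rows named as Rps10 pseudogenes added to it, Rps10 had a log2 fold change of 1.99 with GB (adjusted p = 2.06e-08) and -0.03 with age.

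Other members share sequence with copies too, and counting can split reads between them. The table has 122 rows named as pseudogenes of members, 77 of them with a count, which together held 2.77% of the members' counts. Against their own member, such rows held 26.3% for Rps7, 22.5% for Rps12 and 12.1% for Rps16. Of the 39 such rows tested, 35 rose with GB (24.4% of all genes) and 1 fell (28.8% of all genes), Rps2-ps3, with 26, 16 and 16 counts in aged vehicle and 0 in each GB library. The pseudogene rows named in the text were chosen after their values were seen. Adding pseudogene rows to their members left the value at 2.98 for Rps12, 1.96 for Rps7 and 2.20 for Rps16.

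Within the family the response was uneven, so the make-up of the small subunit mRNA pool differed between GB and aged vehicle libraries. These shares add up to 100% in a library, so a higher share of some genes lowers that of others. With GB the share of 12 genes was higher and that of 14 lower in all GB than in all aged vehicle libraries, and 5 overlapped. Rps2 held the largest share of the pool in the vehicle libraries, at 12.0, 11.6 and 11.6% in young and 9.14, 9.85 and 9.32% in aged libraries, and 7.45, 7.09 and 7.26% in GB libraries. It was lower at each step, with no overlap. Rps20 went the other way, with 2.77, 2.74 and 2.84% in young, 3.29, 3.36 and 3.43% in aged vehicle and 5.37, 5.48 and 5.41% in GB libraries. Rps12 held 1.76 to 1.80% in aged vehicle and 3.05 to 3.33% in GB libraries, a mean 1.81 times as high. The mean share of Rps3 was 4.31% in aged vehicle and 2.41% in GB libraries and that of Rps4x 4.04 and 2.29%, while the level of both rose. With age 7 shares were higher, 5 lower and 19 overlapped. For all genes tested only levels, not such shares, can be set beside these counts. Libraries did not overlap for 17.5% (higher) and 16.9% (lower) of all genes with age, and for 27.3% (higher) with GB. The value for lower with GB is not reported here. By the edgeR test, a different measure, 28.8% of all genes were called lower with GB.

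**Figure D3:**
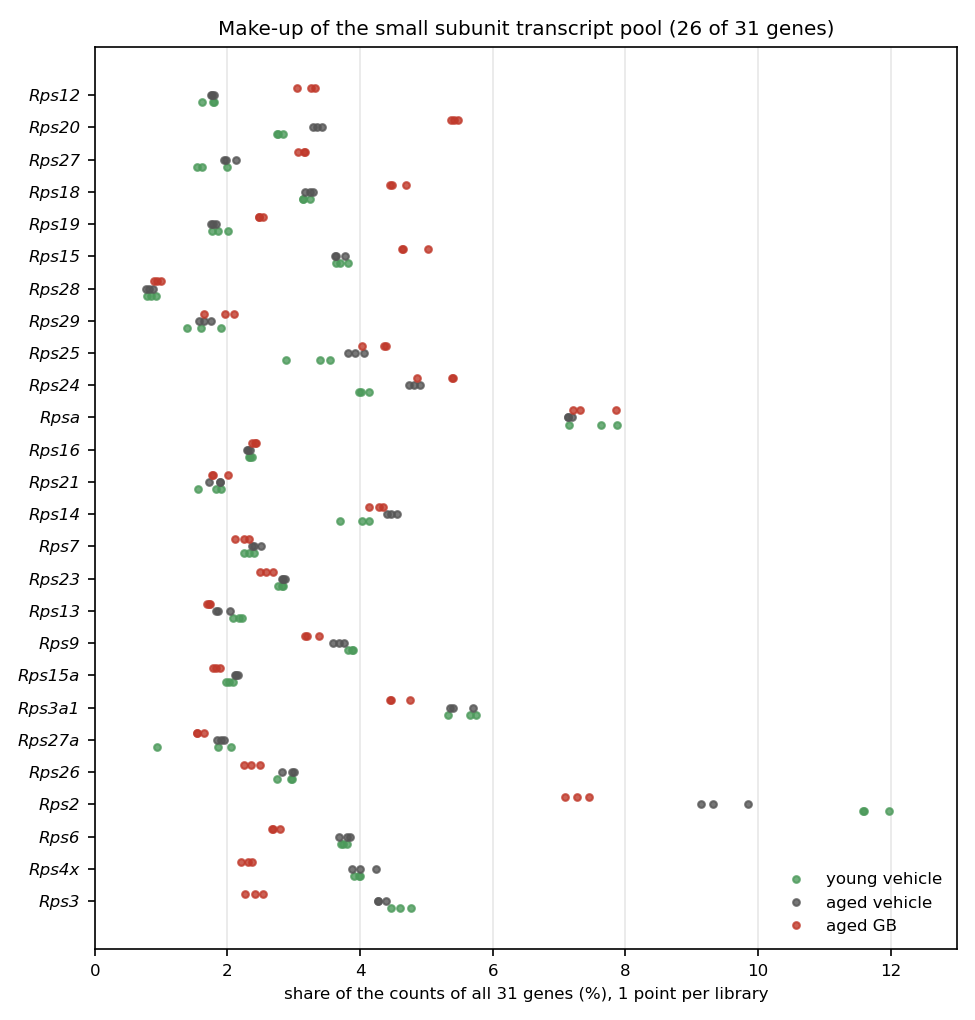
Share of 26 genes in the counts of all 31 genes, in percent, with 1 point per library and genes ordered by the ratio of GB to aged vehicle. Rps12 and Rps20 shift to the right and Rps3, Rps4x and Rps2 to the left with GB.

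Levels of different genes can be compared only per length. Per kilobase of reference transcript, Rps2 was the highest member in aged vehicle libraries at 526 ± 31.8 CPM per kb, followed by Rps14 at 417 ± 11.6 and Rps15 at 409 ± 11.4 CPM per kb (SD, n = 3 libraries each). The latter pair did not differ beyond their spread. Rps20 and Rps15a had the lowest values after Rps10, 50.4 and 23.1 CPM per kb, and the longest reference transcripts, 3706 and 5130 bases. The usual mRNAs of both genes are far shorter, so these values per length are uncertain. In GB libraries Rps15 was highest at 2376 ± 282 CPM per kb, and Rps27 at 2262 ± 221 did not differ from it beyond the spread.

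Transcript length moved with the GB comparison across all genes, and the members are short. Their reference transcripts had a median of 761 bases against 2580 bases for all genes tested. Across 16691 genes, not independent of each other, the GB log2 fold change had a Spearman correlation of -0.40 with reference transcript length, and the age log2 fold change one of -0.01. Other genes of over 500 and up to 1000 bases with at least 20 CPM in aged vehicle had a median log2 fold change of 1.35 with GB (n = 312), and 87.2% of them were called higher. The 18 members in that range had 2.02. Other genes of up to 500 bases at that level had 1.71 (n = 45, 88.9% called higher), and the 7 members there had 2.41. Among the 30 members without Rps10 the correlation of the GB log2 fold change was -0.46 with reference transcript length, -0.44 with aged vehicle CPM and 0.20 with GC content. It was -0.08 with the length column deposited with the counts and -0.06 with aged vehicle CPM per kb of reference transcript. The correlations with length and level among members thus depended on the measure used.

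With an offset for the length trend of each library, chosen after seeing the data, the members' median fell to 1.17 and that of all genes was -0.01. Of the 31 genes 30 were still called, all but Rps10 (adjusted p = 0.215), and 22 were called and at 1 log2 unit or more (8.13% of all genes). Rps4x was lowest at 0.52 (SE 0.08, adjusted p = 0.000219), and Rps12 had 1.86 and Rps3 had 1.08. Rps20 had 3.14 and Rps15a had 2.47, values that are uncertain because the reference transcripts used for them are far longer than their usual mRNAs. With the length column of the table in place of the reference transcripts the median was 1.65. Members called higher by at least 1 log2 unit then numbered 28 (8.86% of all genes), or 29 with GC content added (8.53%), and 20 with GC content added to the reference transcript offset (7.8%). The trend lies in the comparison with the libraries set apart above, and its source was not tested.

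**Figure D4:**
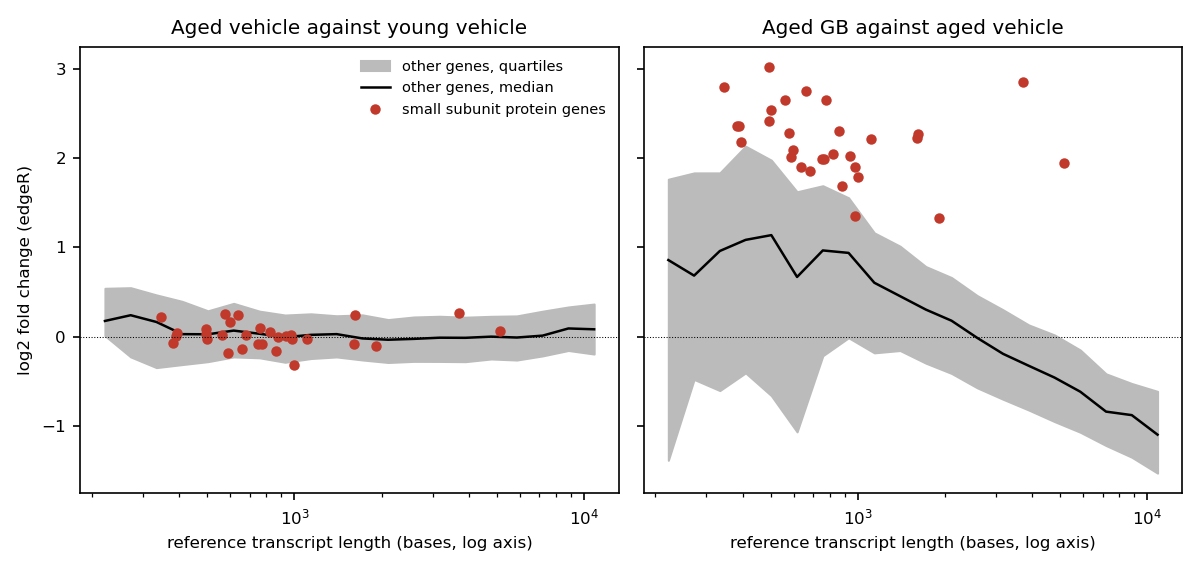
Log2 fold change against reference transcript length on a log axis, for age (left) and GB (right), with the 30 members other than Rps10 as points and the median and quartiles of other genes as line and band. With GB the median of other genes lies between 0.67 and 1.14 up to 1029 bases. Beyond that it goes down with length, to -1.10 in the longest bin, and all points lie above it.

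Against young vehicle, 30 of 31 members were higher in GB libraries (24.7% of all genes were called higher), all but Rps10 (log2 fold change 0.65, SE 0.72, edgeR adjusted p = 0.478). The GB libraries lay above all young libraries for the same 30 genes (27.5% of all genes). The median was 2.14. This comparison shares its GB libraries with the one above, and the comparisons of age and of GB share the aged vehicle libraries. Rps3 had 1.22 and Rps12 had 3.04 here.

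Companions of the subunit were named whatever their values. Fau was at 103 ± 2.75 CPM in aged vehicle against 528 ± 63.2 CPM with GB, a log2 fold change of 2.36 (SE 0.11), and the head-bound scaffold Rack1 at 270 ± 3.93 and 869 ± 76.4 CPM (1.69, SE 0.08). Rps27l, a paralog of Rps27, rose by 2.07 (SE 0.09) and the retrogene Rps27rt by 2.92 (SE 0.18), while the Rps4x paralog Rps4l had 0.62 (SE 0.39, edgeR adjusted p = 0.206). Counts of Rps27l were 47.7 to 58.2% of those of Rps27 in aged vehicle and 30.6 to 34.3% in GB libraries, without overlap, and those of Rps27rt were 12.0 to 14.1% and 13.8 to 15.1%. Reads of Rps27 and Rps27rt may be divided between near-identical rows.

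Other genes of the ribosome and its supply are given here with their counts, to be read against the 24.4% of all genes called higher and the 28.8% called lower with GB. Of 47 large subunit protein genes 46 rose, with a median log2 fold change of 2.18. Among them were Rpl21 (3.09), Rpl38 (3.07) and Rpl28 (2.96). Of 33 mitochondrial small subunit genes 24 rose and 4 fell (median 0.94), with Mrps21 at 2.55 and Mrps18b at -1.81. Of 13 other TOP mRNAs 10 rose and 1 fell (median 0.79), among them Gas5 (2.17), a host of small nucleolar RNAs, and Tpt1 (1.89), which codes for the translationally controlled tumour protein.

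Factors that make or regulate the subunit had medians near or below 0. Of 57 small subunit assembly genes 17 rose and 14 fell (median 0.18), shares close to the 24.4% and 28.8% of all genes. Tsr1, an assembly factor of late precursors, was at 15.9 ± 1.19 CPM in aged vehicle against 1.73 ± 0.932 CPM with GB (log2 fold change -3.19), and the nucleotide kinase Ak6 rose by 1.82. Of 29 initiation factor genes 12 rose and 7 fell (median 0.10). Eif1, which guards start codon choice, rose by 1.77, and Eif2s3x, the gamma subunit of eIF2, fell by 2.01. Of 16 genes of ribosomal RNA transcription 6 rose (median 0.21), with Polr1d at 1.53. Of 23 genes of mTORC1, S6 kinase and LARP1 5 rose and 12 fell (median -0.40), with Rps6ka2, an RSK kinase, at -1.77 and the translation repressor Eif4ebp1 at 1.41. Of 22 ribosome quality control genes 6 rose and 9 fell (median -0.23), with Edf1, a sensor of collided ribosomes, at 1.98.

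**Figure D5:**
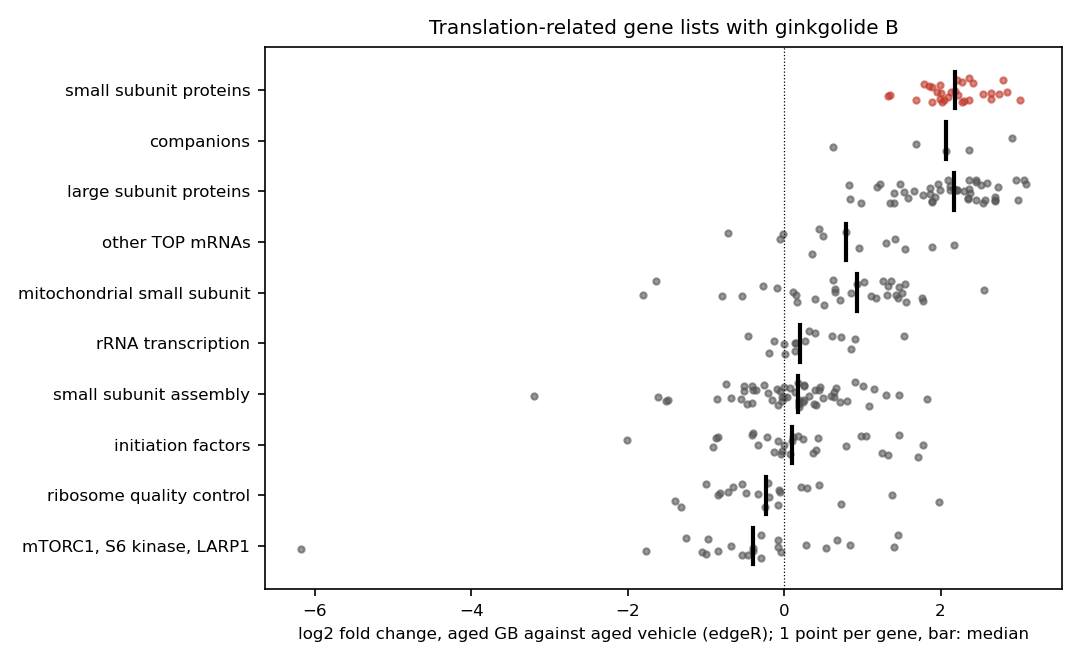
Log2 fold change with GB (edgeR) of the genes of each list, 1 point per gene, with a bar at the median. Small and large subunit proteins have medians of 2.18, and assembly, initiation, quality control and mTORC1 lists have medians between -0.40 and 0.18.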

How the data were processed

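The authors deposited 1 table of raw counts, whole numbers with no normalization, for 56791 genes and 9 libraries, with a column of gene lengths. The labels' protocols describe TRIzol extraction and a KAPA mRNA library kit. Per the submitters' processing notes the tools were DESeq2, FastQC, HISAT2 and SAMtools, with no versions, and the builds GRCm39 and mm10. Counter, annotation and strand setting were not given in the sources used here, so members that overlap another gene (such as Rps18, Rps25 or Rps28) or have near-identical copies are uncertain.

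The main test was edgeR 4.0.16 (R 4.3.3): filterByExpr (minimum count 10, minimum total 15), TMM, and 1 quasi-likelihood model (robust=TRUE) with a mean per group over all 9 libraries. Two-sided p-values received a Benjamini-Hochberg adjustment over 17534 genes, and an adjusted p under 0.05 was called. SE is the log2 fold change divided by the square root of F. Groups came from the titles and labels. The procedure was tested on simulated data. Reference transcripts (GENCODE M21) were known for 95.2% of tested genes. Offsets were lowess trends (span 0.3).

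Named genes were the 4 highest and 4 lowest members with GB, the 2 highest and 2 lowest with age, 12 members whatever their values, 5 companions, and up to 4 called genes per other list, by size of change at a mean of at least 2 CPM. Some members count in the totals but are not reported here by name. Members and lists were chosen with earlier results of these data known. Alternatives were other scalings, filters and thresholds, DESeq2 1.42.0, limma 3.58.1 (voom), robust=FALSE, fits of the groups compared, a replicate block, length and GC offsets, added pseudogene rows and leaving out each library.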

Additional observations from a re-analysis of the deposited data

How the results depend on the processing

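Every alternative kept the direction of all 31 members with GB, and 30 or 31 were called higher (24.4% of all genes in the main fit). Over all genes, 2030 were called higher with library totals and 4755 with upper-quartile factors. The exception was always Rps10, which a minimum count of 50 left untested. The members' median log2 fold change with GB was 1.62 with library totals, 1.65 with the length offset, 1.59 with length and GC, 1.17 with the reference transcript length offset and 1.18 with its GC version. Against young vehicle these were 1.58, 1.61, 1.62, 1.15 and 1.18. The last pair of offsets turned Rps10 against young vehicle from 0.65 to -0.25 and -0.36. Mean shares of counts without mitochondrially encoded genes were 0.701% in young, 0.742% in aged vehicle and 2.56% in GB libraries.

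Age calls depended on the setting. Members called lower were 0 at an adjusted p under 0.01, with a log2 fold change of at least 1, and with library totals, RLE size factors, robust=FALSE or the length and GC offset. Members called higher were 1 without a filter, with limma-voom, in the fit of the groups compared and with the reference transcript length offset, and 2 with DESeq2 and the length offset. Leaving out 1 library gave 0 to 1 in each direction. Of all genes, 4.32% were called higher and 4.28% lower with age in the main fit. With DESeq2 these were 7.65% and 6.99%, and with limma-voom 6.21% and 5.8%. Age calls over all genes numbered 1508, 650 at an adjusted p under 0.01, 524 with the log2 minimum, 2410 with DESeq2, 2261 in the fit of the groups compared and 749 to 2010 leaving out 1 library. With the log2 minimum 5003 genes were called with GB and 5231 against young vehicle. Rps27a with age turned from 0.24 to -0.013 without young replicate 2, and leaving out 1 library gave -0.013 to 0.40. Of 805 age values of members, 48 changed sign, none of them called and none over 0.15 in size; the cause of these changes was not tested.

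The replicate numbers did not pair the libraries (correlations of deviations of -0.028 to 0.057). With the replicate block 31 members were called higher with GB and 8958 genes in all, and 1 member was lower with age among 1312 genes called. Rps10 had 3 to 45 counts per library beside 1709 to 4338 in the row Rps10-ps2, and why it was low was not tested.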

Other observations

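Several members are hosts of small nucleolar RNAs, which guide the modification of ribosomal RNA and are cut from introns. By the GENCODE M21 annotation of GRCm38, 10 of the 31 genes (32.3%) hold at least 1 small nucleolar RNA gene within their bounds, against 1.61% of 13998 tested protein-coding genes. The 10 hosts had a median log2 fold change of 2.22 with GB and the other members 2.14. Rps12 and Rpsa hold 3 such genes each. The small nucleolar RNAs themselves were not analysed here. The 31 genes lie on 13 chromosomes, 9 of them on chromosome 7.

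Some genes of the translation lists passed the test with age, where Rps2 was the one small subunit member to do so. Called lower were 3 of 23 genes of mTORC1, S6 kinase and LARP1. So were 1 of 29 initiation factor genes, 1 of 13 other TOP mRNAs and 1 of 22 quality control genes. In each of these lists 0 were called higher (4.28% of all genes were called lower and 4.32% higher). With age 0 of 47 large subunit, 57 small subunit assembly and 33 mitochondrial small subunit genes were called in either direction. The same held for the 16 genes of ribosomal RNA transcription and the 5 companions. Larp1, which binds TOP mRNAs, had a log2 fold change of -0.50 (edgeR adjusted p = 0.00416), and the translation repressor Eif4ebp2 had -0.55 (adjusted p = 0.00123). Pabpc1, the cytoplasmic poly(A)-binding protein and itself the product of a TOP mRNA, had -0.51 (adjusted p = 0.00714). Deptor, an inhibitor of mTOR, had -0.79 (adjusted p = 0.0184). They were named after their values were seen and are given as values only.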
